A study of Mus musculus with 8 samples.

Results

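A set of 35 mouse genes for the basement membrane, other extracellular matrix and the receptors that bind it was followed in mouse embryonic stem cells. The genes were found by matching the RefSeq accession of each array probe to the symbols of the set, and they are 35 of the 20972 genes with a symbol on the array. All 35 had a probe, 48 probes in all. For 32 of them a probe was well above background on all 8 arrays, and these were tested. Tnc was well above background only on replicate 2 of untreated cells and Col4a5 and Lox on no array, so these 3 genes have no test.

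RNA of 4 groups was measured on 8 Agilent arrays with 1 dye, 2 arrays to a group. Every culture, controls included, grew with LIF and with 250 nM of the FGF receptor inhibitor PD173074. In the inhibited group 250 nM 4OHT (4-hydroxytamoxifen) acted for 8 h and 1 µM of the MEK inhibitor PD0325901 then for 2 h, and the others were untreated or had 4OHT for 8 h or 10 h. The title of the series speaks of an Erk-dependent transcriptome. The labels give neither the cell line nor the protein on which 4OHT acts, and do not tell whether 4OHT stayed on during inhibition. Comparing 4OHT with untreated cells asks which genes followed 4OHT. Comparing inhibited cells with the time-matched 10 h group asks what differed after 2 h of MEK inhibition. The sample titles say Pulse-Chase. If 4OHT was taken off for these 2 h, its loss and the inhibitor cannot be told apart in that comparison. Values are log2 of the processed signal relative to the array's 75th percentile, a level within one probe only, and a change is the log2 difference between group means ± the standard error (SE) of the limma fit over 8 arrays. A gene is called where its p, adjusted over all features tested, is under 0.05. With 2 arrays per group the number of arrays limits the precision, and since no label names separate cultures the p-values cover only the spread of these samples, technical or not.

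A basement membrane is a thin sheet of matrix under epithelia. Laminins, trimers of an alpha, a beta and a gamma chain, form one network in it and collagen IV another, with nidogens and heparan sulfate proteoglycans between them. Cells hold it through integrins, which are pairs of an alpha and a beta chain, and through dystroglycan, and syndecans and glypicans carry heparan sulfate on the cell surface. In the mouse blastocyst the primitive endoderm lays down the first such sheet, which the neighbouring epiblast contacts, and embryonic stem cells also make laminin themselves.

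Known ERK targets followed the treatments. Dusp6, which encodes an ERK phosphatase, read 0.43 and 0.65 in inhibited cells, 3.43 and 3.46 in untreated cells, 6.32 and 6.26 at 8 h, and 6.38 and 6.42 at 10 h (replicates 1 and 2). Spry4 ranged from -5.22 to -4.85 in inhibited cells, from -0.82 to -0.72 in untreated cells and from 2.10 to 2.65 over the 8 h and 10 h arrays, and Egr1 from -0.29 to 0.23, from 0.83 to 1.42 and from 4.76 to 5.56 in the same groups. Nanog ranged from 3.19 to 3.54 in inhibited cells, from 4.78 to 4.83 in untreated cells and from 1.48 to 2.31 with 4OHT alone, and Sox2 from 3.40 to 4.31 over all arrays. All 12 embryonic stem cell markers listed were well above background on all 8 arrays, and Pou5f1 lay between 6.46 and 6.82. Of the 20 fibroblast markers 9 were well above background on all 8 arrays, and of the 13 tested Thy1, Twist1, S100a4, Meox1 and Vim were called higher and Pdgfrb, Tagln and Fstl1 lower at 10 h than in untreated cells. Those called were 61.5% of the 13, against 27.9% of all features. Twist2, Prrx1 and Lum were above background on no array and Postn on 1, while Thy1, a surface protein that is also on other cells, read 4.64 and 3.74 in inhibited cells, 1.63 and 0.70 in untreated cells, 5.21 and 4.11 at 8 h, and 5.35 and 4.23 at 10 h. The summed linear signal of all 20 fibroblast markers was 101 and 87.7 in inhibited cells, 67.6 and 73.6 in untreated cells, 122 and 106 at 8 h, and 122 and 105 at 10 h, in multiples of the 75th percentile. Vim, at 5.35 to 6.07 over all arrays, weighs most in this sum. The same sum over 8 trophoblast markers was 21.4 and 21.6 in inhibited cells, 9.2 and 9.8 in untreated cells, 9.27 and 11.5 at 8 h, and 10.8 and 15.2 at 10 h. Of the 7 trophoblast markers tested, Cdx2, Hand1, Eomes and Gata3 were called higher and Tfap2c and Ascl2 lower at 10 h than in untreated cells. Those called were 85.7% of the 7, against 27.9% of all features. Cdx2 read 0.78 and 1.44 in inhibited cells, -4.41 and -3.65 in untreated cells, 2.07 and 2.60 at 8 h, and 2.06 and 2.95 at 10 h. The part of either cell type in the results below was not tested, and in bulk RNA fewer cells of a type and less RNA per cell cannot be told apart.

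The promoters of the genes on which the results turn are shown here from RefSeq (assembly GRCm38.p6), each from 250 bases before to 50 bases after the annotated start of transcription, 5′ to 3′ on the gene's strand. Itga3, Itgb1 and Sdc4 carried the 3 largest called rises of the set after 4OHT, Lama5 fell after 4OHT and was higher with the inhibitor, and the Col4a2 window also holds the start of Col4a1. Capitals mark 3 motifs searched on both strands, where matches may overlap: the AP-1 site TGANTCA, the ETS core CCGGAA and the GC box GGGCGG. Itga3 lies at chr11:95076665-95076964 on the minus strand, the first of 2 RefSeq entries, and Itgb1 at chr8:128685404-128685703 on the plus strand. Sdc4 lies at chr2:164443139-164443438 and Lama5 at chr2:180225810-180226109, both on the minus strand, and Col4a2 at chr8:11312555-11312854 on the plus strand.
Itga3 promoter: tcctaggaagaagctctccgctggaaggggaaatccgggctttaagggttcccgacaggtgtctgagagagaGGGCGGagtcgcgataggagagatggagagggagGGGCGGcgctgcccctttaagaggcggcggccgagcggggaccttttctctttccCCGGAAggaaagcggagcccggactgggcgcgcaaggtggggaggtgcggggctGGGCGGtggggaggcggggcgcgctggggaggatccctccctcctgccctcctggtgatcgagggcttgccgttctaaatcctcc
Itgb1 promoter: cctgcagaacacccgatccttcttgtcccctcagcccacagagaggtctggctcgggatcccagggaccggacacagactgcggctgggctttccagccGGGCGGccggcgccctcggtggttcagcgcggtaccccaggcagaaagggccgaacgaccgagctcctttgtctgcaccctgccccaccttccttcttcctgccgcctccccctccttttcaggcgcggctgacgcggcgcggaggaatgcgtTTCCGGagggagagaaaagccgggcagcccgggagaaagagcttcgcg
Sdc4 promoter: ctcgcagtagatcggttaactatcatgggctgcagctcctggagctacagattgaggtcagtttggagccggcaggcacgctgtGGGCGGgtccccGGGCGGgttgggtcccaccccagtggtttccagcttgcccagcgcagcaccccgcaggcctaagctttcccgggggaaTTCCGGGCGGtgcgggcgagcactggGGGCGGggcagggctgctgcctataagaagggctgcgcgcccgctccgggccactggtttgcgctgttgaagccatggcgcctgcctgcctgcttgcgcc
Lama5 promoter: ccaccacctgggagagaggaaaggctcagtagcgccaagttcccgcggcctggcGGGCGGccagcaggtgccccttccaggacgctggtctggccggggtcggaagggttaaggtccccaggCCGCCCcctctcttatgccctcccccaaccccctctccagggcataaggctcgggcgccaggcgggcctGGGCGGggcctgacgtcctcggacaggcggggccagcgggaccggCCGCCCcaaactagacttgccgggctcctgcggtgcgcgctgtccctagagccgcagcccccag
Col4a2 promoter: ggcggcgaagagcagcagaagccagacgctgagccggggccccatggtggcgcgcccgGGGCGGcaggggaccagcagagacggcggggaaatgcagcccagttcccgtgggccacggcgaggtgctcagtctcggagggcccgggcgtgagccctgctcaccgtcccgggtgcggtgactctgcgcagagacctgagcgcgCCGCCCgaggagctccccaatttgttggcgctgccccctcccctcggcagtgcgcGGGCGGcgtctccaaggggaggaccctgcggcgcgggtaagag

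Of the 35 genes 27 had a promoter entry. The ETS core stood in 4 of these 27 windows (14.8%), against 14.9% of all 32851 promoters, and the 4 were Itga3, Itgb1, Sdc4 and Nid1. It began 89 bases before the start in Itga3, 76 before in Sdc4, 167 before in Nid1 and 2 bases after it in Itgb1. No window of the set held the AP-1 site, which 7.81% of all promoters hold, and 24 of 27 (88.9%) held a GC box, against 35.7% of all promoters. The 32851 promoters outnumber the 20972 genes with a symbol on the array and were not matched to the set. The shares therefore do not compare like with like. The starts of Col4a1 and Col4a2 lie 21 bases apart on opposite strands, so that the annotated transcripts overlap at their 5′ ends. A match is a description of these letters and was not tested as a binding site.

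After 8 h of 4OHT the integrin chains Itga3, Itga6 and Itgb1 were higher than in untreated cells. So were the syndecan Sdc4, the nidogen Nid2 and the laminin chain Lamb1. Lama5, Agrn, Fbln2, Itgb5, Dag1 and Vcan were lower. These were 12 of the 32 tested genes (37.5%), 6 in each direction, against 21.7% of all features (10.3% higher and 11.5% lower). At 10 h the same 12 were called in the same directions, and Lamb2, Hspg2, Fn1, Gpc3 and Col1a1 were called lower as well, which made 17 of 32 (53.1%, 6 higher and 11 lower) against 27.9% of all features (13.1% higher and 14.8% lower). The 8 h and 10 h comparisons share the untreated arrays and are not independent of each other. The median change of the 32 genes was -0.27 at 8 h and -0.29 at 10 h, beside -0.04 and -0.05 over all features. With the replicate number as a block in the fit 19 genes were called at 8 h (8 higher and 11 lower). The background was then 31.9% of all features, 14.3% higher and 17.6% lower. At 10 h 25 genes were called with the block (9 higher and 16 lower), against 39% of all features, 17.6% higher and 21.5% lower. Centring each array on its median instead of the 75th percentile moved the median change of all features to 0.10 at 8 h and 0.15 at 10 h, and at 10 h 8 genes were then called higher and 8 lower, against 21.9% of all features higher and 8.03% lower. Without replicate 1 of untreated cells 11 of the 32 genes were called at 10 h, against 17.1% of all features.

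**Figure D1:**
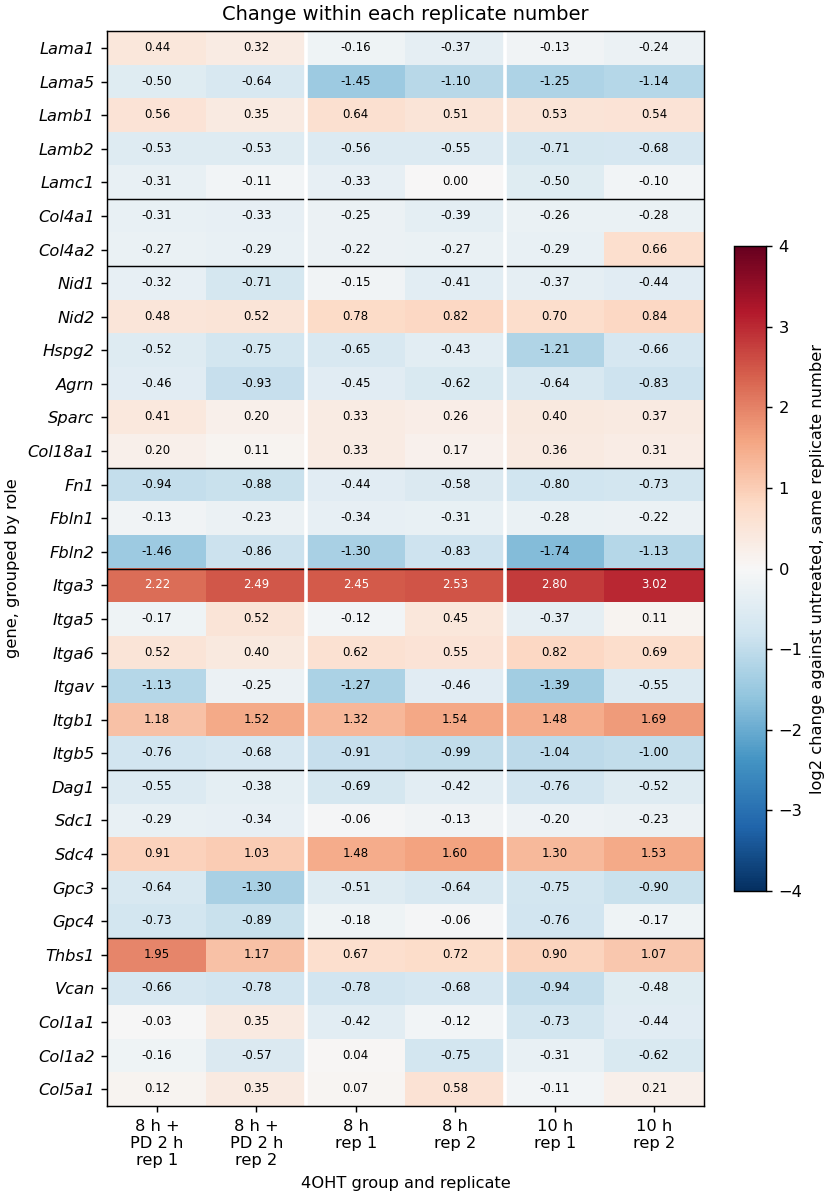
Log2 change against the untreated array of the same replicate number (colour and printed number), for the 32 tested genes (rows, grouped by role and divided by lines) in inhibited cells, at 8 h and at 10 h, 1 column per array. Itga3, Itgb1 and Sdc4 are red in all 6 columns, from 0.91 for Sdc4 to 3.02 for Itga3, while Lama5, Fbln2 and Itgb5 are blue in all 6.

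The 5 laminin chains moved in different directions. Lamb1, the beta chain of the embryonic laminins, read 5.21 and 4.97 in inhibited cells, 4.65 and 4.62 in untreated cells, 5.29 and 5.13 at 8 h, and 5.18 and 5.16 at 10 h. The untreated arrays lay below all 6 others. The change was 0.58 ± 0.11 at 8 h (adjusted p = 0.0161) and 0.54 ± 0.11 at 10 h (0.017). The 8 h call was lost without replicate 1 or 2 of untreated cells (adjusted p 0.0654 and 0.074) or replicate 1 at 8 h (0.0827), and the 10 h call without either untreated array (0.0654 and 0.073) or either 10 h array (0.0757 for each). Lama5, the alpha chain of a laminin common to many epithelia, went the other way. It read 4.04 and 3.82 in inhibited cells, 4.54 and 4.46 in untreated cells, 3.10 and 3.36 at 8 h, and 3.30 and 3.32 at 10 h, so that the inhibited arrays lay between the untreated and the 4OHT arrays without overlap. Its signal was 2.42-fold lower at 8 h (change -1.27 ± 0.12, adjusted p = 0.0021) and 2.29-fold lower at 10 h (-1.19 ± 0.12, 0.00207), and both calls held with any 1 array left out.

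Lamb2, a beta chain that can take the place of Lamb1, read 0.53 and 0.24 in inhibited cells, 1.06 and 0.77 in untreated cells, 0.50 and 0.22 at 8 h, and 0.35 and 0.09 at 10 h. Within each replicate number the untreated array was the highest. The change was -0.56 ± 0.18 at 8 h, called with the replicate block (adjusted p = 0.00271) and not without it (0.0785), and -0.69 ± 0.18 at 10 h (0.0353, with the block 0.00124). The 10 h call without the block was lost without replicate 1 or 2 of untreated cells (0.146 and 0.059) or replicate 1 or 2 at 10 h (0.0624 and 0.154), and under median centring (0.122). Lama1, the alpha chain of the first laminin of the embryo, differed more between the replicates than between the groups. It read 6.38 and 5.40 in inhibited cells, 5.94 and 5.08 in untreated cells, 5.77 and 4.71 at 8 h, and 5.81 and 4.84 at 10 h, with replicate 1 higher by 0.86 to 1.06 in every group. Its change at 8 h was -0.27 ± 0.58 (adjusted p = 0.784, with the block 0.0471) and at 10 h -0.19 ± 0.58 (0.83, with the block 0.0998). Lamc1, the gamma chain that pairs with the chains above, lay between 5.08 and 5.59 on all arrays and was not called (adjusted p = 0.446 at 8 h and 0.155 at 10 h).

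**Figure D2:**
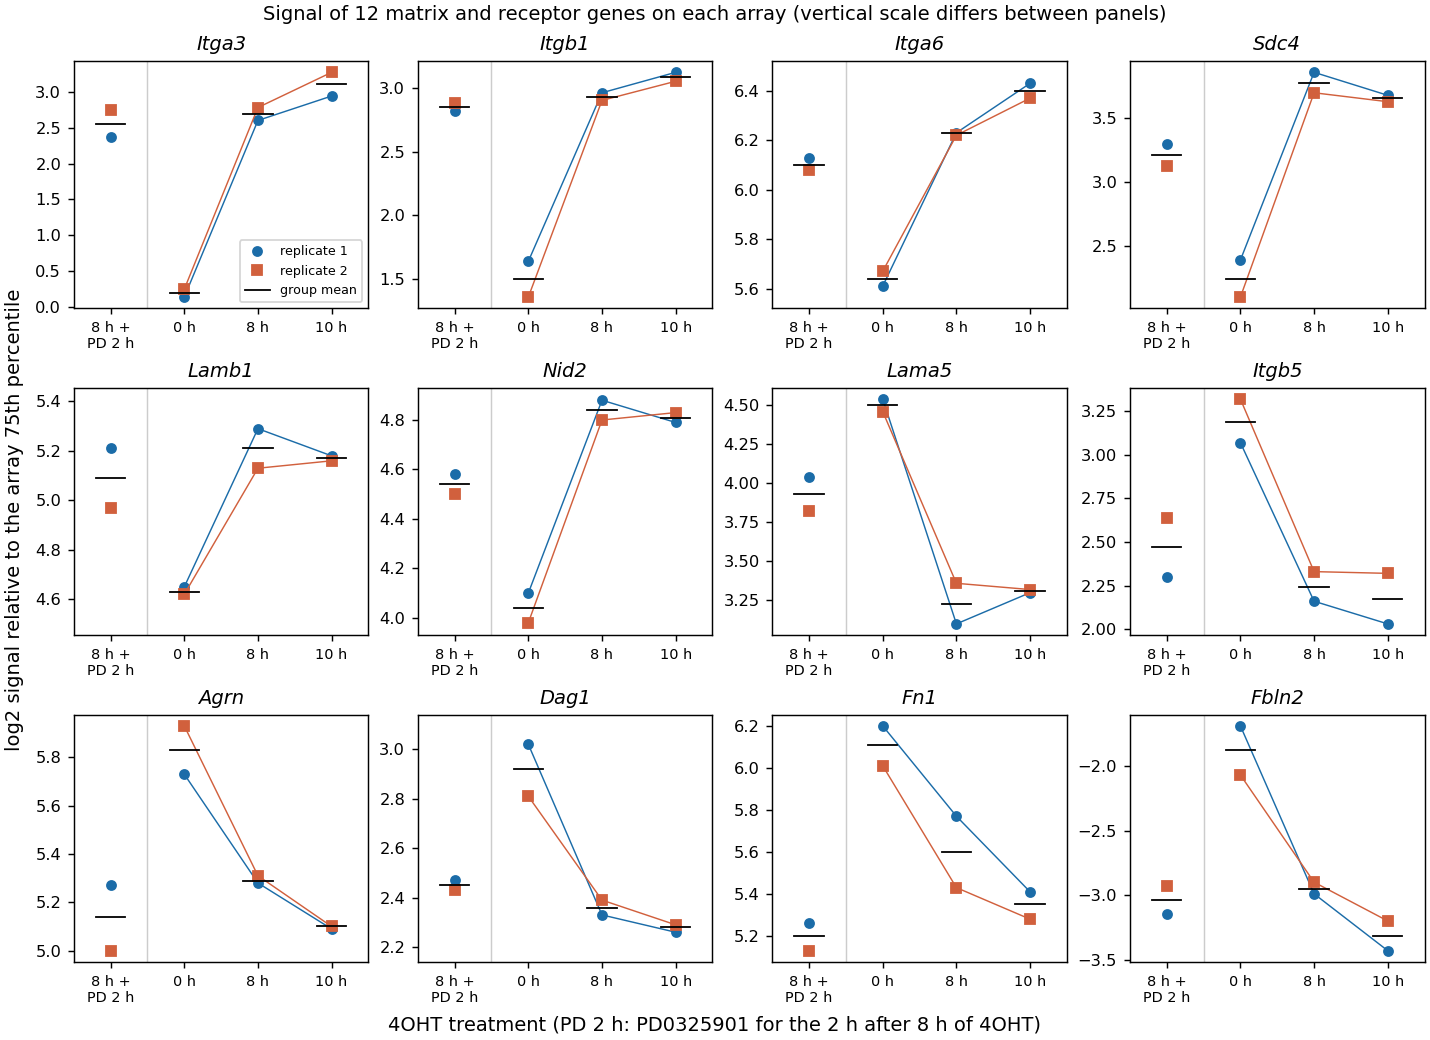
Log2 signal relative to the array's 75th percentile (vertical axis, scaled separately in each panel) for 12 genes on each array, by group (horizontal axis). Points are arrays, black bars group means of 2 arrays, and lines join the 4OHT times of a replicate number. Itga3 stands at 0.14 and 0.25 in untreated cells and at 2.37 or above on the other 6 arrays, and Lama5 in inhibited cells (4.04 and 3.82) stands between the 4OHT and the untreated arrays.

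Collagen IV gave no call without the block. Col4a1 read 1.18 and -0.24 in inhibited cells, 1.50 and 0.08 in untreated cells, 1.24 and -0.31 at 8 h, and 1.24 and -0.20 at 10 h. The replicates were 1.41 to 1.55 apart in every group, and within a number the untreated array was the highest of the 4. Its change of -0.32 ± 0.86 at 8 h and -0.27 ± 0.86 at 10 h had adjusted p of 0.825 and 0.836, and with the replicate block 0.0205 and 0.0299. Col4a2 ranged from -0.93 to 1.05 and was not called in either fit (with the block 0.549 at 8 h and 0.633 at 10 h). Its replicates were 1.70 to 1.75 apart in 3 groups and 0.74 apart at 10 h. Its 10 h array of replicate 2, at 0.01, lay above the other arrays of that number, which lay between -0.93 and -0.64.

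Among the nidogens and proteoglycans that link the networks, Nid2 was higher and the others called without the block were lower. Nid2 read 4.58 and 4.50 in inhibited cells, 4.10 and 3.98 in untreated cells, 4.88 and 4.80 at 8 h, and 4.79 and 4.83 at 10 h. It was 1.74-fold higher at 8 h (0.80 ± 0.08, adjusted p = 0.00219) and 1.70-fold higher at 10 h (0.77 ± 0.08, 0.00204), and both calls held with any 1 array left out. Its paralogue Nid1 read 4.52 and 3.80 in inhibited cells, 4.85 and 4.50 in untreated cells, 4.70 and 4.09 at 8 h, and 4.48 and 4.07 at 10 h. The untreated array was the highest of each replicate number, and the change of -0.40 ± 0.33 at 10 h was called only with the block (0.0452, without it 0.395). All 3 Nid1 probes gave changes below 0 at both times, between -0.49 and -0.22. Agrn, which encodes agrin, read 5.27 and 5.0 in inhibited cells, 5.73 and 5.93 in untreated cells, 5.28 and 5.31 at 8 h, and 5.09 and 5.10 at 10 h. The untreated arrays were above all others, with a change of -0.54 ± 0.12 at 8 h (0.0266) and -0.73 ± 0.12 at 10 h (0.00813). The 8 h call was lost without replicate 2 of untreated cells (0.108), replicate 1 or 2 at 8 h (0.108 and 0.106) or either 10 h array (0.0527 for each), and under median centring (0.0646), and with the mean of its kept probes (0.0801). A second Agrn probe gave -0.47 and -0.51 and was not called (0.219 and 0.163).

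Hspg2, which encodes perlecan, read 2.97 and 2.40 in inhibited cells, 3.48 and 3.15 in untreated cells, 2.83 and 2.72 at 8 h, and 2.28 and 2.49 at 10 h. It was 1.91-fold lower at 10 h (-0.93 ± 0.22, adjusted p = 0.0274) and -0.54 ± 0.22 on the log2 scale at 8 h (0.139). The 10 h call was lost without replicate 1 or 2 of untreated cells (0.12 and 0.0536) or replicate 1 or 2 at 10 h (0.114 and 0.0768), and its second probe, at -0.86, was not called (0.0826). The collagen-binding protein gene Sparc and Col18a1, a basement membrane collagen gene, were not called at either time without the block. Sparc read 8.28 and 7.96 in inhibited cells, 7.87 and 7.76 in untreated cells, 8.20 and 8.03 at 8 h, and 8.27 and 8.13 at 10 h, a change of 0.30 ± 0.13 at 8 h (0.179, with the block 0.0404) and 0.38 ± 0.13 at 10 h (0.086, with the block 0.0169). Col18a1 read 5.60 and 5.81 in inhibited cells, 5.40 and 5.70 in untreated cells, 5.73 and 5.87 at 8 h, and 5.76 and 6.02 at 10 h. Its change was 0.25 ± 0.15 at 8 h (0.305, with the block 0.0461) and 0.34 ± 0.15 at 10 h (0.16, with the block 0.0172), and replicate 2 was the higher one in all 4 groups. Both genes were called higher with the block, and at 10 h under median centring (0.0418 for Sparc and 0.0297 for Col18a1). A second Sparc probe gave 0.44 at 10 h and was called without the block (0.0361), as was Sparc as the mean of its kept probes (0.0468) and with a prior that follows the intensity and is robust (0.0375).

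Fibronectin and the fibulins were lower after 4OHT where they were called. Fn1 read 5.26 and 5.13 in inhibited cells, 6.20 and 6.01 in untreated cells, 5.77 and 5.43 at 8 h, and 5.41 and 5.28 at 10 h. The untreated arrays were the highest and those of inhibited cells the lowest within each number. The change was -0.51 ± 0.14 at 8 h, called with the block (0.00938) and not without it (0.0536), and -0.76 ± 0.14 at 10 h, 1.70-fold lower (0.013). The 10 h call was lost without replicate 1 of untreated cells (0.0663) or replicate 2 at 10 h (0.073), and under median centring (0.0538). Fbln2 read -3.15 and -2.93 in inhibited cells, -1.69 and -2.07 in untreated cells, -2.99 and -2.90 at 8 h, and -3.43 and -3.20 at 10 h. It was 2.09-fold lower at 8 h (-1.06 ± 0.16, adjusted p = 0.00872) and 2.70-fold lower at 10 h (-1.44 ± 0.16, 0.00273), and both calls held with any 1 array left out. With normexp background correction the change was -0.59 at 8 h and -0.64 at 10 h (1.55-fold lower), called at both times. That correction, here and below, adds an offset of 50 to each signal before the log2, which by construction makes changes of dim probes smaller. Fbln1 read -0.18 and -0.09 in inhibited cells, -0.05 and 0.15 in untreated cells, -0.39 and -0.17 at 8 h, and -0.33 and -0.07 at 10 h. Its change was called only with the block, at -0.33 ± 0.14 at 8 h (0.0226, without it 0.151) and -0.25 ± 0.14 at 10 h (0.0409, without it 0.222), while its second probe gave -0.77 at 10 h and was called without it (0.0336).

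The integrin chains held the largest change of the set. Itga3, the alpha chain of a laminin receptor of epithelia, read 2.37 and 2.74 in inhibited cells, 0.14 and 0.25 in untreated cells, 2.60 and 2.78 at 8 h, and 2.94 and 3.27 at 10 h. It was 5.63-fold higher at 8 h (2.49 ± 0.17, adjusted p = 0.000836) and 7.51-fold higher at 10 h (2.91 ± 0.17, 0.000413). Itgb1, the beta chain that pairs with Itga3, Itga5, Itga6 and Itgav, read 2.82 and 2.88 in inhibited cells, 1.64 and 1.36 in untreated cells, 2.96 and 2.90 at 8 h, and 3.12 and 3.05 at 10 h. The untreated arrays lay below the rest, a 2.70-fold rise at 8 h (1.43 ± 0.11, 0.000994) and 3.0-fold at 10 h (1.58 ± 0.11, 0.000608). A second Itgb1 probe rose by 1.31 and 1.53 and was called at both times (0.00058 and 0.000315). Itga6, the alpha chain of another laminin receptor, read 6.13 and 6.08 in inhibited cells, 5.61 and 5.67 in untreated cells, 6.23 and 6.22 at 8 h, and 6.43 and 6.37 at 10 h. It was 1.50-fold higher at 8 h (0.58 ± 0.07, 0.00387) and 1.69-fold at 10 h (0.76 ± 0.07, 0.00143). The calls of Itga3, Itgb1 and Itga6 at both times held with any 1 array left out.

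The other integrin chains of the set, Itgb5, Itgav and Itga5, fell or were not called without the block. They serve receptors for ligands with an RGD site, but so does Itgb1 when paired with Itga5 or Itgav, and Itgb1 rose. Itgb5, the beta chain of a vitronectin receptor, read 2.30 and 2.64 in inhibited cells, 3.07 and 3.32 in untreated cells, 2.16 and 2.33 at 8 h, and 2.03 and 2.32 at 10 h. The untreated arrays lay above all others, a 1.93-fold fall at 8 h (-0.95 ± 0.17, adjusted p = 0.0146) and 2.03-fold at 10 h (-1.02 ± 0.17, 0.00954). The 8 h call was lost without replicate 2 of untreated cells (0.0731) or replicate 1 or 2 at 8 h (0.0741 and 0.0536), and the 10 h call without replicate 2 of untreated cells (0.0507). Its partner Itgav read -1.61 and -1.92 in inhibited cells, -0.47 and -1.67 in untreated cells, -1.74 and -2.13 at 8 h, and -1.86 and -2.22 at 10 h. The 2 untreated arrays were 1.20 apart, and the change of -0.97 ± 0.40 at 10 h was called only with the block (0.0349, without it 0.131). A second Itgav probe gave -0.33 at 10 h and was not called (0.177). Itga5, the alpha chain of the main fibronectin receptor, lay between -0.40 and 0.33 and was not called (0.676 at 8 h and 0.712 at 10 h).

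Among the other surface receptors Sdc4 was higher and Dag1 and Gpc3 lower. Sdc4, a syndecan of focal adhesions, read 3.30 and 3.13 in inhibited cells, 2.39 and 2.10 in untreated cells, 3.86 and 3.70 at 8 h, and 3.68 and 3.63 at 10 h. The inhibited arrays lay between the untreated and the 4OHT arrays. It was 2.91-fold higher at 8 h (1.54 ± 0.13, adjusted p = 0.0013) and 2.66-fold at 10 h (1.41 ± 0.13, 0.00139), and both calls held with any 1 array left out. Sdc1, another syndecan, read 0.35 and 0.20 in inhibited cells, 0.64 and 0.54 in untreated cells, 0.58 and 0.41 at 8 h, and 0.44 and 0.31 at 10 h. Its change of -0.22 ± 0.10 at 10 h was called only with the block (0.0364, without it 0.177). Dag1, which encodes both chains of dystroglycan, read 2.47 and 2.43 in inhibited cells, 3.02 and 2.81 in untreated cells, 2.33 and 2.39 at 8 h, and 2.26 and 2.29 at 10 h. The untreated arrays were above all others, with a change of -0.55 ± 0.09 at 8 h (0.0108) and -0.64 ± 0.09 at 10 h (0.00547). The 8 h call was lost without replicate 1 or 2 at 8 h (0.0628 and 0.0533) and under median centring (0.0522), and the 10 h call held with any 1 array left out.

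Gpc3, a glypican, read 0.67 and 0.21 in inhibited cells, 1.31 and 1.51 in untreated cells, 0.79 and 0.86 at 8 h, and 0.56 and 0.61 at 10 h. It was 1.77-fold lower at 10 h (-0.82 ± 0.16, adjusted p = 0.0162), with -0.58 ± 0.16 at 8 h (0.0561). The 10 h call was lost without replicate 2 of untreated cells (0.0774) or replicate 1 or 2 at 10 h (0.0717 and 0.069). Gpc4, another glypican, ranged from -1.57 to -0.68 and was not called at 8 h (0.706) or 10 h (0.137).

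Matricellular and interstitial matrix genes were lower where called without the block. Vcan, a large chondroitin sulfate proteoglycan, read -0.97 and -1.13 in inhibited cells, -0.31 and -0.35 in untreated cells, -1.09 and -1.03 at 8 h, and -1.25 and -0.83 at 10 h. The untreated arrays were the highest, with a change of -0.73 ± 0.15 at 8 h (adjusted p = 0.021) and -0.71 ± 0.15 at 10 h (0.0191). The 8 h call was lost without replicate 1 or 2 of untreated cells (0.0917 and 0.0801) or replicate 1 or 2 at 8 h (0.0927 and 0.0846), and the 10 h call without replicate 1 or 2 of untreated cells (0.0843 and 0.071). A second Vcan probe, made to another RefSeq transcript, gave -0.30 and -0.25 and was not called (0.167 and 0.209). Col1a1, a chain of the fibrillar type I collagen, read -2.94 and -2.77 in inhibited cells, -2.91 and -3.12 in untreated cells, -3.33 and -3.24 at 8 h, and -3.64 and -3.56 at 10 h. The 10 h arrays were the lowest, with a change of -0.58 ± 0.11 (0.0126), beside -0.27 ± 0.11 at 8 h (0.132). The 10 h call was lost without replicate 1 of untreated cells (0.055) or replicate 1 or 2 at 10 h (0.0649 and 0.0533), and under median centring (0.0602), quantile normalization (-0.41, 0.0525) and normexp background correction (-0.21, 0.061).

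Thbs1, which encodes a thrombospondin, read -2.47 and -1.88 in inhibited cells, -4.42 and -3.05 in untreated cells, -3.75 and -2.33 at 8 h, and -3.52 and -1.98 at 10 h. Replicate 2 was the higher one in all 4 groups, and within each number the untreated array was the lowest and the inhibited array the highest. The change of 0.99 ± 0.76 at 10 h was called only with the block (adjusted p = 0.0345, without it 0.375). Col1a2, the partner chain of Col1a1, ranged from -2.99 to -2.02 and Col5a1, a fibril-regulating collagen chain, from -0.82 to -0.24. Neither was called at 8 h (0.354 and 0.194) or 10 h (0.21 and 0.839).

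Extending 4OHT from 8 h to 10 h gave no call among the 32 genes. Across all features limma also called 0 (0% of features), with and without the block. At an unadjusted p under 0.05 there were 2 of the 32 genes, a share close to the 6.61% of all features (1499). With the block 12.5% of all features (2829) were under it. Itga3 was 0.42 ± 0.17 higher at 10 h than at 8 h (adjusted p = 0.759). Its interval of -0.01 to 0.84 includes 0, so it was not among these 2 genes. Col1a1 was at -0.31 ± 0.11 (0.741).

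After 2 h of MEK inhibition the share of the set called against the time-matched cells was close to that of all features. Against cells given 4OHT for 10 h, Lama5 and Col1a1 were higher and limma called no gene lower, while 6 of the 32 genes (18.8%) and 21.2% of all features had an unadjusted p under 0.05, so 2 of 32 genes (6.25%) were called against 6.12% of all features (3.24% higher and 2.87% lower). With the replicate block 6 genes were called, Lama1, Lama5 and Col1a1 higher and Itga3, Itga6 and Sdc4 lower, against 12.4% of all features (6.66% higher and 5.77% lower). The median change of the 32 genes was 0.02, beside -0.04 over all features. The 10 h arrays also enter the 10 h comparison with untreated cells, so the values of both comparisons are given side by side and not as independent evidence.

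Lama5 was 1.54-fold higher in inhibited cells than at 10 h (0.62 ± 0.12, 95% interval 0.32 to 0.93, adjusted p = 0.0453, with the block 0.0452), beside its change of -1.19 at 10 h against untreated cells. The change was 0.75 in replicate 1 and 0.50 in replicate 2. Its call was lost with any 1 of the 8 arrays left out (adjusted p 0.0539 to 0.185) and under median centring (0.0723). Against 8 h of 4OHT Lama5 was 0.70 ± 0.12 higher (0.0306), the 1 gene of the set called there without the block, against 6.52% of all features (3.4% higher and 3.11% lower), and that call too was lost with any 1 array left out (0.0622 to 0.126). Without either 10 h array the 1 gene called was Gpc4, lower at -0.69 (0.0336). Col1a1 was 1.68-fold higher than at 10 h (0.74 ± 0.11, interval 0.48 to 1.01, 0.019), which put the inhibited arrays at -2.94 and -2.77, beside -2.91 and -3.12 in untreated cells. The Col1a1 call was lost without replicate 1 or 2 at 10 h (0.0954 and 0.0926) or replicate 1 or 2 of inhibited cells (0.0634 and 0.0908). Lama1 was 0.57 higher than at 10 h in both replicates, which the fit without the block does not call (SE 0.58, 0.63) and the fit with it does (SE 0.07, 0.0139).

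The 3 genes called lower with the block were all among those higher after 4OHT. Itga3 was at -0.56 ± 0.17 relative to 10 h (95% interval -0.98 to -0.13, adjusted p = 0.145, with the block 0.0245), beside its rise of 2.91 at 10 h. Sdc4 was at -0.44 ± 0.13 (-0.76 to -0.13, 0.12, with the block 0.0287), beside a rise of 1.41. Itga6 was at -0.30 ± 0.07 (-0.47 to -0.13, 0.0706, with the block 0.0471), beside 0.76. In each of these the inhibited arrays did not overlap those at 10 h, but neither did they for Itgb1 and Nid2, which were not called. With 2 arrays against 2 this adds no support to the calls. Itgb1 gave -0.23 ± 0.11 (-0.50 to 0.03) and was called in neither fit (0.29, with the block 0.191), although its second probe gave -0.38 (0.0527). Nid2 gave -0.27 ± 0.08 (0.126, with the block 0.0647). For Lamb1, Agrn and Vcan the intervals ran from -0.35 to 0.19, from -0.25 to 0.33 and from -0.38 to 0.35, so a change larger than these bounds is outside the interval. The 2 Itgav probes disagreed in direction, at 0.28 and -0.74, and neither was called (0.754 and 0.0626).

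Compared with the start of inhibition at 8 h, the fit with the block called 5 of the 32 genes. That share was close to the 14% of all features (7.41% higher and 6.62% lower). Lama1 and Lama5 were higher, and Nid2, Fn1 and Sdc4 lower. Fn1 was -0.40 ± 0.14 relative to 8 h (adjusted p = 0.175, with the block 0.0357) and -0.15 ± 0.14 relative to 10 h (0.604), beside -0.25 ± 0.14 for 10 h relative to 8 h (0.819). Sdc4 was -0.57 in each replicate relative to 8 h (SE 0.13, 0.0606, with the block 0.0148). Itga3 and Itga6, lower than at 10 h with the block, were called in neither fit relative to 8 h. Itga3 was at -0.14 ± 0.17 (0.697, with the block 0.355) and Itga6 at -0.13 ± 0.07 (0.359, with the block 0.256). Lama1 was 0.65 ± 0.58 higher (0.575, with the block 0.00977).

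**Figure D3:**
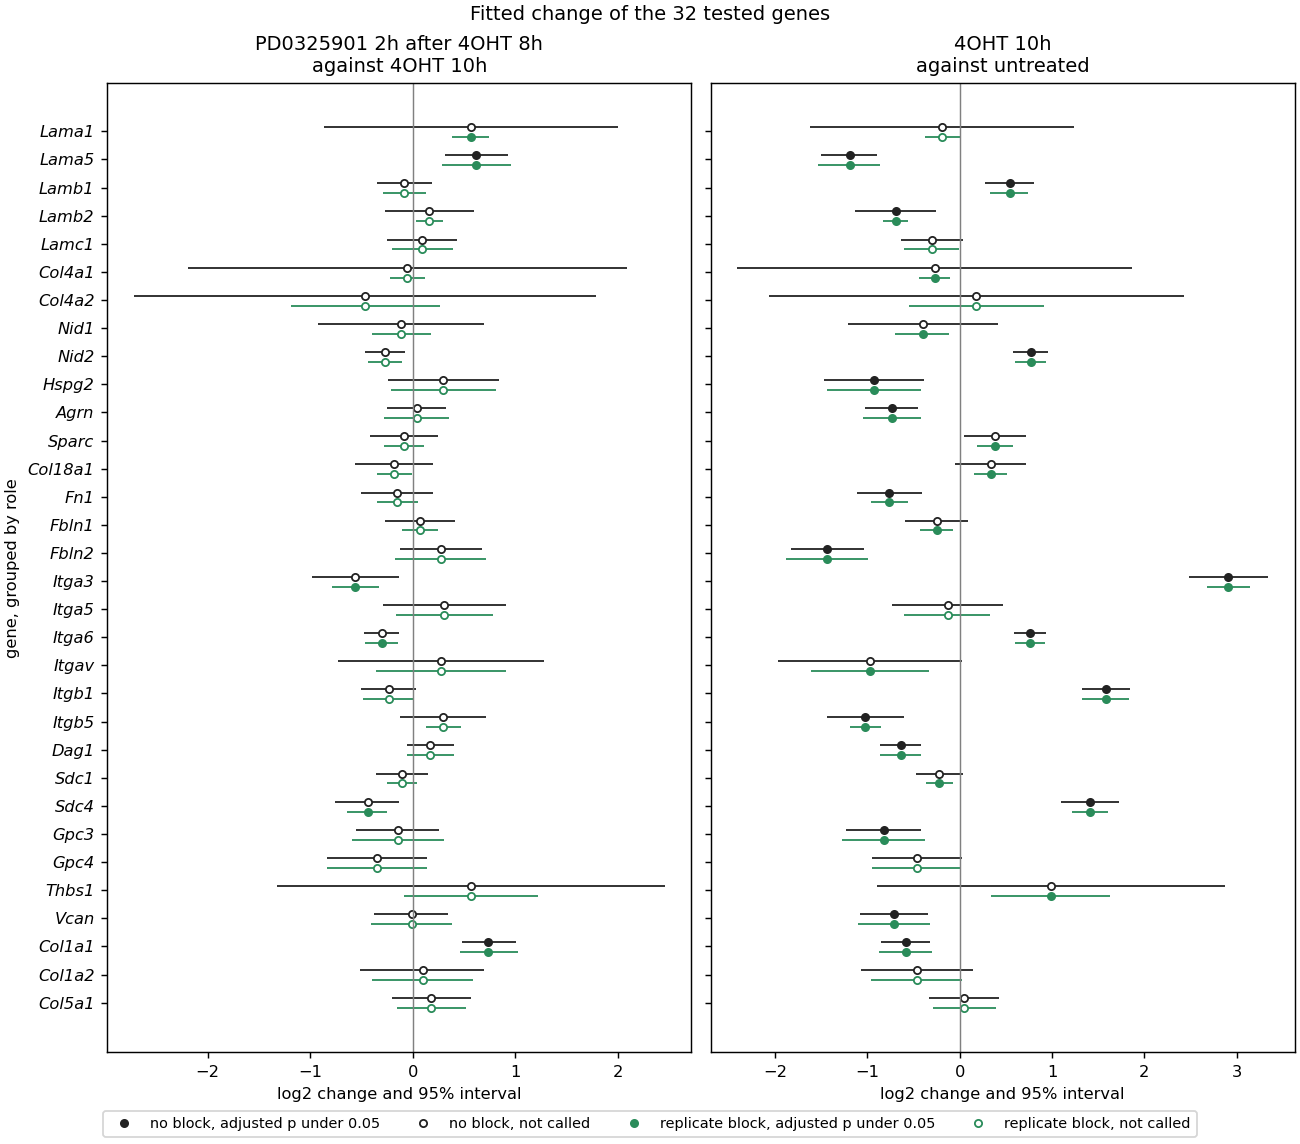
Fitted log2 change with its 95% interval (horizontal axes) for the 32 tested genes (rows, grouped by role): inhibited cells against 10 h of 4OHT on the left and 10 h of 4OHT against untreated cells on the right. Black is the fit without and green the fit with the replicate block, and filled points have an adjusted p under 0.05. On the left only Lama5 and Col1a1 have filled black points, while Itga3 is at -0.56 there and at 2.91 on the right.

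Relative to untreated cells, inhibited cells differed at 15 of the 32 genes (46.9%, 6 higher and 9 lower), against 15.9% of all features (7.06% higher and 8.8% lower). With the block 22 genes were called, 9 higher and 13 lower, against 27.7% of all features (11.5% higher and 16.2% lower). The 6 higher ones were Lamb1, Nid2, Itga3, Itga6, Itgb1 and Sdc4, the genes higher at 8 h and 10 h. All 3 comparisons with untreated cells share the untreated arrays, so this recurrence is not independent evidence. Itga3 was 5.11-fold above untreated cells (2.35 ± 0.17, adjusted p = 0.00195), Itgb1 2.55-fold (1.35 ± 0.11, 0.00241) and Sdc4 1.96-fold (0.97 ± 0.13, 0.00873), and these 3 calls held with any 1 array left out. The 9 lower ones were Lama5, Agrn, Fn1, Fbln2, Itgb5, Dag1, Gpc3, Gpc4 and Vcan. Leaving out 1 array took 9 of the 15 calls without replicate 1 and 8 without replicate 2 of untreated cells, and 10 without either array of inhibited cells. Without an 8 h array 5 calls were lost, and without a 10 h array 4. The calls of Lamb1 (0.0433) and Itgb5 (0.044) were lost with any 1 array left out (0.0545 to 0.145 for Lamb1 and 0.0576 to 0.162 for Itgb5), and those of Dag1, Itgb5 and Lama5 under median centring. Gpc4 was -0.81 ± 0.20 relative to untreated cells (0.0468), beside -0.12 at 8 h and -0.46 at 10 h, and was lost without replicate 1 or 2 of inhibited cells (0.117 and 0.171), of untreated cells (0.144 and 0.152) or of the 8 h cells (0.0791 for each). Thbs1 was 1.56 ± 0.76 higher (0.218, with the block 0.0142), by 1.95 in replicate 1 and 1.17 in replicate 2.

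Some genes of the set differed more between the replicates than between the groups. Replicate 1 was higher in all 4 groups for 12 of the 32 genes and replicate 2 for 5. The same count was not made over all features, so whether these numbers are unusual cannot be told. The mean difference, replicate 1 minus replicate 2, was 1.47 for Col4a2, 1.46 for Col4a1, 0.97 for Lama1, 0.57 for Itgav and 0.52 for Nid1, and -1.23 for Thbs1. So 3 of the 32 genes differed by over 1, while 297 of 22658 features (1.31%) did. The median difference over all features was 0.01 (log2). Lamb1 and Lamc1, which pair with Lama1, differed by 0.12 and 0.14.

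Most tested markers of primitive endoderm moved with the replicate number as well. Of 25 markers listed, 20 were tested, with a median difference of 1.29, and 12 were higher in replicate 1 in all 4 groups. The latter count, too, has no match over all features. Gata6 differed by 1.95, Gata4 by 1.45, Sox17 by 2.22, Sox7 by 1.16, Pdgfra by 2.21 and Dab2 by 2.13. Tested markers outside the 12 were flat or went the other way. Krt8 differed by -0.31 and Krt18 by -0.23, with replicate 2 higher in all 4 groups. Cited1 differed by -0.23, Lrp2 by -0.15, Thbd by 0.04, Fst by 0.06, Rhox5 by 0.07 and Plat by 0.09. Gata6, a factor that sets up this lineage, read -0.69 and -2.58 in inhibited cells, -0.30 and -2.26 in untreated cells, 0.27 and -1.75 at 8 h, and 0.36 and -1.55 at 10 h. Ttr and Apoa1 were above background on no array. The summed linear signal of all 25 markers was 58.9 and 56.5 in inhibited cells, 27.3 and 25.5 in untreated cells, 57.0 and 56.4 at 8 h, and 71.3 and 78.6 at 10 h, in multiples of the 75th percentile. Krt18 and Rhox5, the brightest of these markers on every array, weigh most in this sum. Krt18 ranged from 2.90 to 3.33 in untreated cells and from 4.72 to 5.57 on the other arrays. Rhox5 ranged from 2.61 to 2.85 and from 3.89 to 4.30 in the same order. Of the 20 tested markers limma called 4 higher and 0 lower than in untreated cells at 8 h and at 10 h (Lrp2, Rhox5, Krt18 and Thbd at both), 20% of those tested against 21.7% and 27.9% of all features. At an unadjusted p under 0.05 there were 4 and 4 of the 20, against 35.7% and 41.1% of all features. The fit with the block called 5 higher and 2 lower at 8 h, and 6 higher and 2 lower at 10 h, against 31.9% and 39% of all features. The part of such cells in the levels of Lama1, Col4a1, Col4a2 and Nid1 was not tested.

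**Figure D4:**
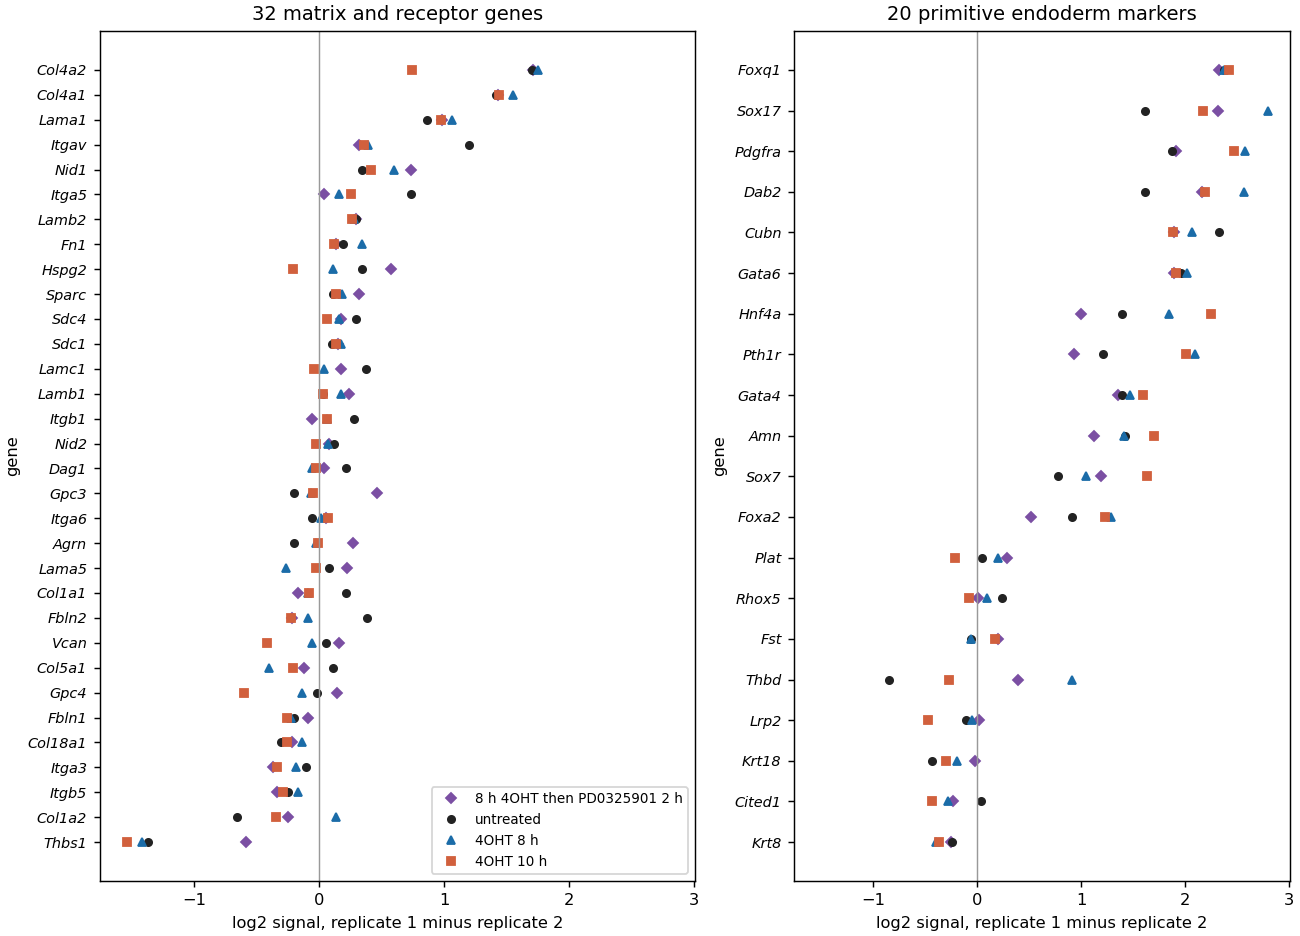
Replicate 1 minus replicate 2 in log2 signal (horizontal axes) in each group (symbols), for the 32 matrix and receptor genes (left) and the 20 tested markers of primitive endoderm (right). Col4a2, Col4a1 and Lama1 lie at the top of the left panel, and Sox17, Pdgfra, Dab2 and Gata6, with means of 2.22, 2.21, 2.13 and 1.95, lie near the top of the right panel.

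Genes of the same pathways outside the set were counted from 8 lists. Of all features 27.9% were called at 10 h against untreated cells and 6.12% between inhibited cells and 10 h. For the inhibitor comparison the share was 12.4% with the block and 21.2% at an unadjusted p under 0.05. Of 15 tested laminin and basement membrane genes 5 were higher and 4 lower at 10 h than in untreated cells (60.0%). Between inhibited cells and 10 h limma called 0 (0 with the block, 1 at an unadjusted p under 0.05). Col7a1, the anchoring fibril collagen, was 6.33-fold higher (2.66 ± 0.13, adjusted p = 0.00026) and Pxdn, a peroxidase that crosslinks collagen IV, 4.08-fold (2.03 ± 0.15, 0.000778). Tinagl1 rose by 3.80 ± 0.42 (0.00259), with 1 of 2 untreated arrays well above background. Of 11 other integrin genes 36.4% were called at 10 h. The 3 higher ones were the laminin- or collagen-binding Itga1 and Itga7 and the RGD-binding Itga8, and 1 was lower, the leukocyte chain Itgal. Itga7 rose by 2.81 ± 0.19 (0.000585) and Itga8 by 3.07 ± 0.21 (0.000622), and Itga1, not well above background in untreated cells, was at least 2.79-fold higher (0.000118). That bound sets the mean of the bright group against, per dim array, the higher of the dimmest signal well above background and the probe's own. With normexp background correction the change of Itga1 was 0.74 (1.67-fold) and that of Tinagl1 2.45. Of the 11 limma called 0 between inhibited cells and 10 h (2 with the block, both lower, and 2 at an unadjusted p under 0.05).

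Of 27 focal adhesion and integrin adaptor genes 11 were higher and 4 lower at 10 h (55.6%, against 27.9% of all features). Between inhibited cells and 10 h limma called 0, against 6.12% of all features (1 higher and 2 lower with the block, 3 at an unadjusted p under 0.05). Zyx, which encodes the adaptor zyxin, rose 2.35-fold (adjusted p = 0.00141), Tns3 1.85-fold (0.00142) and Ptk2b, a kinase related to focal adhesion kinase, 3.62-fold (0.00321). Of 22 collagen folding and crosslinking genes 3 were higher and 3 lower (27.3%, close to the 27.9% of all features). Loxl4, a relative of Lox, was at least 22.0-fold higher (9.33e-05; 4.82-fold with normexp background correction), Bmp1, a procollagen protease, 4.29-fold higher (0.00143; 1.72-fold as the mean of its probes) and P3h3 2.60-fold lower (0.00146). With the inhibitor Plod2, a collagen lysyl hydroxylase, was -0.57 ± 0.09 relative to 10 h (0.0272), a call lost with any 1 array left out (adjusted p 0.0544 to 0.134) and with normexp background correction (0.057). Of 20 fibrillar and interstitial matrix genes 2 were higher, Ecm1 (3.40-fold, 0.000406) and Ltbp4 (1.40-fold, 0.00482), and 5 lower, among them Mfap2 (1.78-fold, 0.00633), and limma called 0 with the inhibitor (3 with the block, all higher, and 6 at an unadjusted p under 0.05).

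The other 3 lists held called genes in both comparisons. Of 12 matricellular genes 1 was higher and 4 lower at 10 h than in untreated cells (41.7%, against 27.9% of all features). In inhibited cells 4 were higher and 1 lower than at 10 h (41.7%, against 6.12% of all features). Spp1, which encodes osteopontin, was 0.58 ± 0.07 higher with the inhibitor (adjusted p = 0.0119), beside -1.61 ± 0.07 at 10 h (0.000201). The first call was lost without replicate 1 or 2 of inhibited cells (0.068 and 0.0644) or replicate 1 or 2 at 10 h (0.071 and 0.0712). Ccn4 was 3.08-fold higher with the inhibitor (0.00451; 1.99-fold with normexp background correction), while at 10 h Tgfbi was 1.85-fold lower (0.00823) and Ccn1 1.73-fold higher (0.0115, and 0.0606 without replicate 1 of untreated cells). Of 27 proteoglycan, hyaluronan and heparan sulfate genes 4 were higher and 7 lower at 10 h (40.7%, against 27.9% of all features). With the inhibitor 3 were higher and 1 lower (14.8%, against 6.12% of all features). Hs6st1, a heparan sulfate sulfotransferase, was 1.74 ± 0.10 higher with the inhibitor (0.00166), beside -1.91 ± 0.10 at 10 h (0.000326). Has2, a hyaluronan synthase, was at least 5.50-fold higher with the inhibitor than at 10 h (0.0021), where it was not well above background and at least 5.45-fold lower than in untreated cells (0.000556). With normexp background correction its changes were 0.78 and -0.68. Ext1, a heparan sulfate polymerase, was 2.07-fold higher at 10 h (0.000502).

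Of 20 dystroglycan glycosylation and dystrophin complex genes 1 was higher and 7 lower at 10 h (40.0%, against 27.9% of all features). With the inhibitor 1 was higher (5.0%, against 6.12% of all features). That gene was Sgca, which encodes a sarcoglycan, at 1.08 ± 0.14 relative to 10 h (adjusted p = 0.0158), beside -2.37 ± 0.14 at 10 h against untreated cells (0.000429), where 1 of 2 arrays at 10 h was well above background. The call with the inhibitor was lost without replicate 1 or 2 of inhibited cells (0.0882 and 0.0823) or replicate 1 or 2 at 10 h (0.0804 and 0.078), with normexp background correction (0.107) and with the mean of its probes (0.176). With normexp the change was 0.29 with the inhibitor and -0.80 at 10 h. Sgce, which encodes another sarcoglycan, was 1.68-fold higher at 10 h than in untreated cells (0.00249). The comparisons at 10 h and with the inhibitor share the 10 h arrays.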

How the data were processed

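Total RNA of 8 samples was hybridised to 1 slide of single-colour arrays. Per the file headers, Feature Extraction 11.0.1.1 made the deposited processed signal, a background-corrected intensity on a linear scale, not scaled between arrays; the array design uses build mm9. The authors' deposited value table holds the same intensity to within 0.497%. Deposited marks of 0 or 1 tell which spots are well above background, saturated (0) or outliers (169 to 249 per array, left out). Of the 59305 non-control spots, 36889 to 37789 were well above background in replicate 1 and 30218 to 31433 in replicate 2.

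Accessions were matched to symbols of a RefSeq table (GRCm38.p6): 27656 of 55681 probes gave 1 symbol, 0 several and 28025 none. Log2 signals were set relative to the 75th percentile of each array over its non-control spots and fitted with limma 3.58.1 in R 4.3.3, after reading with Python 3.11.15 and pandas 2.3.3, with 1 mean per group (residual degrees of freedom 4) and two-sided tests with Benjamini-Hochberg adjustment over 22684 features (22685 between inhibited cells and 10 h). Spots of a probe were averaged; probes were kept that passed the background mark on both arrays of at least 1 group, and a gene was its kept probe with the highest mean. Second probes were tested in a fit over all 30323 kept probes. Where leaving out an array leaves 1 in a group, that array is assumed to vary like the other groups. The fit was tested on simulated data.

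Labels give replicates 1 and 2 in each group, each number being 1 row of the slide. Arrays of the same number deviated together from their group means (correlation 0.29 to 0.36, 6 pairs of groups), so the numbers were taken to pair the samples, and the fit with replicate number as a block is given where it changes a call. Group and slide column coincide and cannot be told apart. The genes, the other lists and the rule for naming genes (per-array values for each gene called at 8 h, at 10 h or between inhibited cells and 10 h, with or without the block; outside the set up to 3 called genes per list at 10 h and 2 with the inhibitor, by smallest adjusted p) were chosen with earlier results of these data known. For 1 gene that this rule names, the result is not reported here.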

Additional observations from a re-analysis of the deposited data

How the results depend on the processing

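Over 50 gene changes recomputed (19 at 8 h, 25 at 10 h and 6 between inhibited cells and 10 h), no gene called without the block reversed. The genes that reversed were called only with the block: Lama1 at 8 h changed by 0.16 without replicate 1 of untreated cells and 0.27 without replicate 2 at 8 h, and Col4a1 by 0.38 and 0.45 without the same arrays, and at 10 h by 0.44 without replicate 1 of untreated cells and 0.45 without replicate 2 at 10 h; with 1 array left out these changes ranged from -0.80 to 0.27, -1.10 to 0.45 and -0.99 to 0.45, and in each reversal the replicates left in the 2 groups carry different numbers, and these genes differ by replicate number.

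The count of called genes at 8 h (12) was 19 with the replicate block and 7 with no filter on dim probes, which tests more features, and 8 to 13 with 1 array left out, against 31.9%, 6.23% and 10.0% to 18.8% of all features (21.7% without these changes). At 10 h (17) it was 25 with the block, 11 with no filter and 11 to 17 with 1 array left out, against 39%, 8.94% and 14.0% to 25.8% of all features (27.9%). Between inhibited cells and 10 h (2) it was 6 with the block, 4 with normexp background correction, 4 with an intensity trend and robust prior, 1 under median centring, 0 with no filter, 0 in a fit of only the groups compared, which has fewer samples, and 0 to 1 with 1 array left out. Of all features (6.12%), these settings called 12.4%, 6.85%, 8.49%, 5.09%, 0.9%, 1.44% and 1.63% to 4.22%, in the same order. Between inhibited cells and 8 h (1) it was 5 with the block, 4 with normexp, 3 with the trend, 0 with no filter, 0 in the fit of only these groups and 0 to 1 with 1 array left out, where the 1 gene was Gpc4, lower, and not Lama5. Of all features (6.52%), these called 14%, 7.87%, 9.17%, 0.968%, 1.43% and 1.72% to 4.68%. Between inhibited and untreated cells (15) it was 22 with the block, 4 with no filter, 7 with only these groups and 5 to 11 with 1 array left out, against 27.7%, 2.89%, 6.23% and 5.26% to 11.7% of all features (15.9%). Where no reason is given, the cause was not tested. The value table, quantile normalization and the mean of a gene's kept probes kept every count within 1.5 times, and of the 32 genes 0 were called at 10 h against 8 h in all settings. Signal over background limits Col4a5, Tnc and Lox.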
